A study of Homo sapiens and Mus musculus with 16 samples.

Results

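Accessible chromatin was examined around 36 genes of glycolysis and the hypoxia response, which are 36 of 20020 protein-coding genes in the human annotation and, through their mouse orthologs, 36 of 21924 in the mouse annotation. The rule named the genes by function and used no measured value, although earlier results of these data were known when they were chosen: 2 glucose transporters, 15 glycolytic enzymes, 2 enzymes that regulate glycolysis, 6 genes of lactate and pyruvate handling, 4 genes of oxygen sensing and 7 targets of the hypoxia response. For each gene, every accessible region within 50 kb of any of its annotated transcription start sites was taken. This gave 460 of 118107 regions in HPAF-II control cells, 386 of 97047 in HPAF-II HNF4G-KO cells, 347 of 68074 in the KPC primary tumor line and 396 of 80843 in the KPC liver mets line. The gene's own start was the nearest coding start for only part of these regions, namely 58.0% of the 460 control regions and 52.5% of the 347 primary tumor regions, so a region near a gene is not thereby assigned to it.

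The assay was ATAC-seq, which marks open chromatin by letting a transposase tag the DNA that nucleosomes leave exposed. HPAF-II is an established human pancreatic adenocarcinoma cell line. Its HNF4G-KO cells were edited with CRISPR-Cas9 in HNF4G, a nuclear receptor gene, and were a pool of single-cell clones, while its control cells received Cas9. The KPC cells were untreated lines from an engineered mouse model of pancreatic cancer, 1 from a primary tumor and 1 from matched liver metastases (mets), so that each KPC group stands for a single line. The label of every group gives the genotype as WT, including that of the HNF4G-KO cells. Labels give MEM with serum for HPAF-II and DMEM with serum for KPC, and no group was labelled as grown at low oxygen. Each group had 4 replicates, but the 4 were represented by 1 list of regions, so that no value was held per replicate, the read depth was unknown and none of the differences given here has a replicate check or a test. Wilson 95% intervals and the intervals of medians cover counting error only. The score that accompanies each region has no stated scale and was used only as a rank within its list.

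Glycolysis converts glucose to pyruvate in the cytosol, and lactate dehydrogenase then converts pyruvate to lactate, which leaves the cell through monocarboxylate transporters. Under low oxygen, prolyl hydroxylases no longer mark the HIF alpha subunits for destruction, and HIF, paired with ARNT, binds a short hypoxia response element and raises transcription of many of the genes described here. In pancreatic cancer, a tissue known for poor perfusion, glycolysis and HIF targets are widely studied, and HNF4 factors are known for the metabolic genes of liver, gut and pancreas.

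Sequences of places the results turn on are shown first, written 5′ to 3′ on the strand of the gene where they lie before its start and on the plus strand otherwise. Capitals mark the core of the hypoxia response element (ACGTG or GCGTG on either strand). ANKRD37 (GRCh38.p14 chr4:185396591-185396810, plus strand) is shown because its 220 bases lie wholly inside an accessible region of both HPAF-II lists. BNIP3 (chr10:131981968-131982173, minus strand) is shown because none of its 206 bases, with 6 matches to the core and a GC content of 82.5%, lies in a region of either HPAF-II list. CA9 (chr9:35673898-35673927, plus strand) is limited to the 30 bases before its start, which an exon of a gene on the other strand also covers, and all 30 bases lie in a control region while 0 lie in an HNF4G-KO region. These 3 human sequences are from RefSeq.
ANKRD37: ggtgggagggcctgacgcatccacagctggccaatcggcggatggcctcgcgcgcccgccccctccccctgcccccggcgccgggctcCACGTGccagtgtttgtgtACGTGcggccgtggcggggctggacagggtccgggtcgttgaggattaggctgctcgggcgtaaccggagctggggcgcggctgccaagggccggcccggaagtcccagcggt
BNIP3: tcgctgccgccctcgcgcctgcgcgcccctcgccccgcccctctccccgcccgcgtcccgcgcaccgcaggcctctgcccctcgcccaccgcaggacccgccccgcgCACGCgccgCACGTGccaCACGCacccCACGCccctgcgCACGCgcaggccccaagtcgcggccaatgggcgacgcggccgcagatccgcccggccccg
CA9: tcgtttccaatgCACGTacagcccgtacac

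The lactate dehydrogenase B gene is shown in both species because its start was accessible in HPAF-II and not in KPC. The human stretch (GRCh38.p14 chr12:21657972-21658092, minus strand, RefSeq) has no match to the hypoxia core, and 121 of its 121 bases lie in the control region and 111 in the HNF4G-KO region. The mouse stretch (mm10 chr6:142507958-142508207, minus strand) has 1 match, in capitals, and 0 of its 250 bases lie in a region of either KPC list.
LDHB human: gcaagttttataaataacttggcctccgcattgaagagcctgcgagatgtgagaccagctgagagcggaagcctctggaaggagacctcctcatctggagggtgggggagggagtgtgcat
Ldhb mouse: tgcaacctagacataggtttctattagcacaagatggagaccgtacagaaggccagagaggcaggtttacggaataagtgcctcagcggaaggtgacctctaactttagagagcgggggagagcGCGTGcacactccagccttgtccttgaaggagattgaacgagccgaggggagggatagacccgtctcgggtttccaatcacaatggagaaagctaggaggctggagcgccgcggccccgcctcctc

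Epas1 is shown because its regions moved up most in liver mets. The first stretch (mm10 chr17:86732271-86732471) is intergenic and upstream of the gene, and the second (mm10 chr17:86769633-86769833) is in an intron. Both lie wholly inside regions of both KPC lists, with 2 and 1 matches to the hypoxia core, and the second also holds TGAGTCA, the AP-1 letters, in capitals.
Epas1 upstream: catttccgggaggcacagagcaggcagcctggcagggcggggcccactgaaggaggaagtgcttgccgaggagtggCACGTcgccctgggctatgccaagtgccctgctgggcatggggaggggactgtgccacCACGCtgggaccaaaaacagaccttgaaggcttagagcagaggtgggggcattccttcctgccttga
Epas1 intron: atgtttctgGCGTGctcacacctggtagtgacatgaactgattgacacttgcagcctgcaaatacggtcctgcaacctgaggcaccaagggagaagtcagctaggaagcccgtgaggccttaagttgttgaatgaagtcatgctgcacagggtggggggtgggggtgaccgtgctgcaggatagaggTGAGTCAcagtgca

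The last pair shows the strongest region near these genes that only the liver mets list holds and the only HPAF-II region near these genes with the HNF4 letters that the control list alone holds. The first lies 40484 bp downstream of a Pfkfb3 start (mm10 chr2:11441232-11441432, 0 bases in primary tumor regions and 201 in liver mets regions), with the FOXA letters TGTTTAC and the AP-1 letters in capitals, both read on the minus strand. The second lies 42901 bp downstream of a PGK1 start (hg38 chrX:78168162-78168362, 201 bases in control regions, 0 in HNF4G-KO regions and 96 in annotated exons), with the HNF4 letters CAAAGTCCA in capitals, also read on the minus strand.
Pfkfb3 liver mets: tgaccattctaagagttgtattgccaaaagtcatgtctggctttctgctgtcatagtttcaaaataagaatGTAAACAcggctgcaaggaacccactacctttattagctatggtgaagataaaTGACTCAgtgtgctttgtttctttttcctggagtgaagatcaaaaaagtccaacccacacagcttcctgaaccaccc
PGK1 control: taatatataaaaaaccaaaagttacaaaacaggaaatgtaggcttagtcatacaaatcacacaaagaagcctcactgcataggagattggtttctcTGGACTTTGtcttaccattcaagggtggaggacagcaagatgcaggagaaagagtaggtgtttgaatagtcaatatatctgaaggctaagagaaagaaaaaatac

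The identity of the cells was checked on 25 marker genes. All 8 ductal epithelial genes (EPCAM, CDH1, KRT7, KRT8, KRT18, KRT19, SOX9 and MUC1) had a promoter region in all 4 lists, at list percentiles, or ranks by score in the whole list, between 54.2 and 94.5 in control, between 54.0 and 98.2 in HNF4G-KO, between 16.1 and 58.1 in primary tumor and between 13.9 and 68.8 in liver mets. No leukocyte gene had one in any list. Among markers of liver cells, ALB and APOA1 had none in any list, while TTR was at percentile 46.9 in control and 35.0 in HNF4G-KO, and Ttr at 30.9 in primary tumor with none in liver mets. The endothelial gene Pecam1 had a promoter region in both KPC lists (84.3 and 70.4) and PECAM1 in neither HPAF-II list, and CDH5 or Cdh5 had none in any. Of the fibroblast genes, COL1A1 or Col1a1 had one in every list, between 75.8 and 94.1, PDGFRB had one in HPAF-II (82.4 and 84.4) and Pdgfrb none in KPC, and DCN or Dcn had none. Of 4 acinar genes, CELA3A had one in both HPAF-II lists (96.9 and 95.3) and CPA1 in HNF4G-KO alone (14.8), and of 3 endocrine genes CHGA had one in control alone (12.2), while no acinar or endocrine gene had one in KPC. The part of other cell types in the results was not tested. The HNF4G promoter itself was accessible in both HPAF-II lists, with 2 regions in each and a strongest percentile of 82.4 in control and 82.7 in HNF4G-KO, and accessibility at a start does not check an edit in the coding sequence.

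Promoters of glycolysis and hypoxia genes were accessible in both HPAF-II lists, and no gene had a promoter region in a single list. A promoter region, meaning a region within 1 kb of any start site of the gene, was present for 34 of 36 genes (94.4%) in control and for the same 34 in HNF4G-KO, against 74.9% and 72.8% of all coding genes. BNIP3, a mitochondrial protein of mitophagy, and SLC2A3, a neuronal-type glucose transporter, had none in either list, and their nearest regions lay 1829 bp from a start in control and 1862 bp in HNF4G-KO for BNIP3, and 2370 and 2391 bp for SLC2A3. 0 of 36 genes had a promoter region in the control list alone, against a background of 2.69% of coding genes, and 0 of 36 in the HNF4G-KO list alone, against 0.634%. At such background rates a count of 0 in 36 says nothing about these genes. The strongest promoter regions of these genes had a median list percentile of 81.6 in control and 81.4 in HNF4G-KO, slightly under the 85.0 and 84.7 of all coding genes.

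How far the promoters moved within the ranking was read from shared regions, those that overlap the other list by at least 1 bp, each ranked by score from 0 to 100 among the shared regions of its own list. A change is the HNF4G-KO rank minus the control rank of the gene's strongest control promoter region and the region that overlaps it longest, and a promoter is said to have risen or fallen where the change was at least 10 percentile points. Of 34 promoters, 6 rose, namely VEGFA, ENO2, PFKP, ENO1, SLC16A1 and PGAM1, against a background of 15.2% of coding gene promoters, and 2 fell, CA9 and PKM, against 5.68%. The other 26 stayed within 10 points. The share that rose, 17.6%, and the share that fell, 5.88%, lie near those backgrounds. The median change was 2.48 points (95% interval -0.13 to 7.70) beside 1.46 for all coding genes, with 22 promoters higher and 12 lower in HNF4G-KO. These directions depend on the ranking, because the control list is longer and holds more weak regions: by rank in the whole list, 3 promoters rose and 6 fell, with a median of -0.12.

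**Figure D1:**
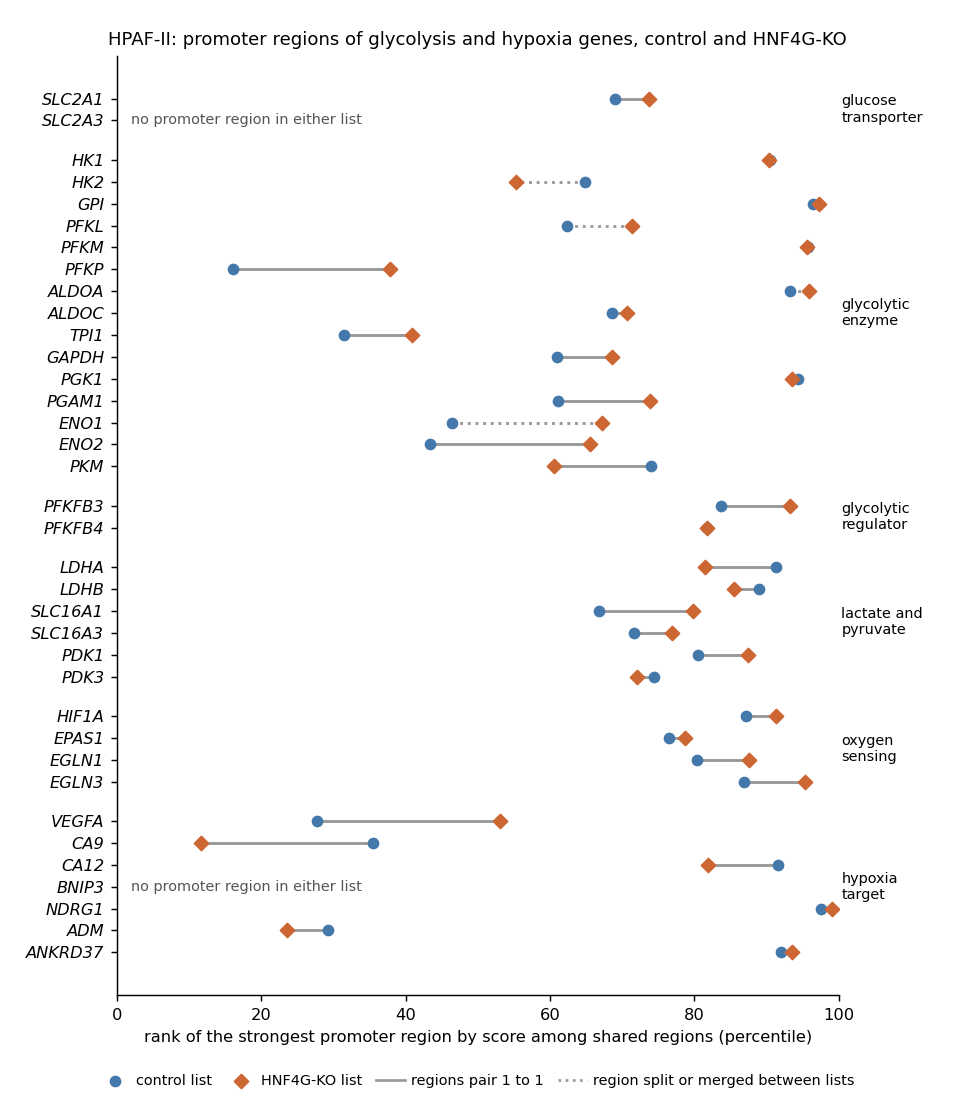
Rank of each gene's strongest promoter region in HPAF-II, as a percentile by score among shared regions, with 1 circle for the control list and 1 diamond for the HNF4G-KO list and the genes grouped by role. VEGFA, ENO2, PFKP and ENO1 moved up by more than 20 points, CA9 fell by 23.8, and dotted lines mark regions that are split or merged between the lists.

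Among the glycolytic enzymes, 10 of 15 promoters were higher and 5 lower in HNF4G-KO. ENO2, the neuronal form of enolase, went from 43.4 to 65.6, and ENO1, the ubiquitous form, from 46.4 to 67.2, although the 1498 bp control region of ENO1 was met by 2 regions in HNF4G-KO. PFKP, the platelet form of phosphofructokinase, had the weakest enzyme promoter in control at 16.1 and reached 37.8. PGAM1, phosphoglycerate mutase, went from 61.2 to 73.9. PKM, pyruvate kinase, was the only enzyme promoter that fell, from 74.0 to 60.5. That control region, chr15:72222425-72222846, lay at an annotated start inside the gene, and was at list percentile 80.5. In HNF4G-KO the strongest PKM promoter region was another, chr15:72230856-72232036, at list percentile 78.6. It covers the outermost PKM start, 72231819. The promoters already at the upper end of the ranking hardly moved: GPI went from 96.5 to 97.3, PFKM from 95.8 to 95.6, PGK1 from 94.4 to 93.5, and HK1 from 90.5 to 90.4. HK2, hexokinase 2, changed by -9.55 points by longest overlap, but its 2035 bp control region was split in HNF4G-KO and the change was 1.08 against the strongest overlapping region.

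The glucose transporter SLC2A1 was 4.77 points higher, and the regulator PFKFB3, which makes the activator of phosphofructokinase, went from 83.7 to 93.3, just under the 10-point limit, while PFKFB4 changed by -0.11. In lactate and pyruvate handling the promoters did not move together. SLC16A1, the lactate transporter MCT1, rose from 66.9 to 79.9, SLC16A3 (MCT4) was 5.36 higher and PDK1, which inhibits pyruvate dehydrogenase, was 6.88 higher. LDHA, which makes lactate, went from 91.3 to 81.5, a change of -9.82 that also fell just short of the limit, and its region shrank from 1341 to 826 bp. LDHB changed by -3.40 points and PDK3 by -2.41. All 4 oxygen sensing promoters were higher in HNF4G-KO by less than 10 points: HIF1A by 4.16, EPAS1 by 2.24, EGLN1 by 7.25 and EGLN3 by 8.57. By whole-list rank EPAS1 was lower, at 82.3 in control and 80.2 in HNF4G-KO, and the other 3 were higher. The EGLN3 region, chr14:34461645-34462978, was read at its outermost annotated start, 34462774, while its starts reach as far as 33931336.

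The hypoxia targets held the largest promoter rise and the largest promoter fall. CA9, carbonic anhydrase 9, which is widely used as a marker of hypoxic tumor cells, had a promoter region of 628 bp in control at chr9:35673428-35674055 that covered the start site. Its HNF4G-KO partner, chr9:35673428-35673757, was 330 bp wide and ended before that start, so that the 30 bases printed for CA9, with their CACGT, lay outside it. The rank went from 35.5 to 11.7. A region at another annotated CA9 start, chr9:35680775-35681083, was in the HNF4G-KO list alone at list percentile 40.6, and a control-only region, chr9:35681503-35681793, lay near the same start at 3.80. The 10 other shared regions within 50 kb of CA9 included 3 that rose and 2 that fell, so the fall at the start was not shared by the whole neighbourhood.

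VEGFA, the vascular growth factor, went the other way at its promoter. The region at its first start, chr6:43769592-43770294, went from 27.7 to 53.1, and 2 narrower regions just downstream went from 9.98 to 26.9 and from 0.59 to 21.3. Another, chr6:43771876-43772090, was at 14.5 and then 10.9, and 2 promoter regions at list percentiles 39.3 and 36.1 were in the control list alone. The farther regions did not follow: of the shared regions more than 10 kb from a VEGFA start, 2 fell and none rose by 10 points. The promoter of CA12, another tumor carbonic anhydrase, changed by -9.66 points, read at a start inside the gene, chr15:63331813, and not at its outermost start, 63381846. That of ADM, the adrenomedullin gene, changed by -5.56, read at chr11:10303801-10304285, which ends before the first ADM start, 10305073. In HNF4G-KO the strongest ADM promoter region was another, chr11:10304555-10305153, which covers that start. The promoters of NDRG1 (97.5 to 99.0) and ANKRD37 (92.1 to 93.5), both near the upper end, were higher by 1.50 and 1.43.

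Across all regions within 50 kb, the control list held more regions that its partner lacked than the HNF4G-KO list did. In control, 90 of 460 regions were in that list alone, 19.6% (16.2 to 23.4), beside 22.7% of all control regions near coding genes. In HNF4G-KO, 13 of 386 were in that list alone, 3.37% (1.98 to 5.68), beside 6.41%. Both shares were below their backgrounds, the second beyond its interval, and with the lists cut to equal length they were 10.3% (7.68 to 13.8) beside 13.3% and 8.55% (6.15 to 11.8) beside 12.1%. Distal regions are those outside the promoters of all coding genes. Of these, 66 of 282 control regions were in that list alone, 23.4% (18.8 to 28.7) against 26.4%, inside the interval. In HNF4G-KO, 9 of 227 distal regions were, 3.96% (2.10 to 7.36) against 7.44%, just outside it. Within 1 kb of a start the control share was 13.6% against 12.3%. Control-only regions were narrow and weak, with a median width of 249.5 bp and a median list percentile of 16.0, beside 651 bp and 70.2 for shared ones.

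EGLN3, a prolyl hydroxylase that is itself a HIF target, had the most control-only regions, 10 of 36, but its 11 annotated starts lie between 33931336 and 34462774 on chromosome 14 and so collect more regions than any other gene. SLC16A3 followed with 7 of 22. CA12, PDK3, PFKFB3, PFKP and TPI1 had 5 each, which for PDK3, pyruvate dehydrogenase kinase 3, were 5 of only 10 regions. The strongest control-only region by list percentile was at a start of NDRG1 (60.0), followed by chrX:24494693-24495026, 29157 bp from PDK3 (58.5), another near NDRG1 (58.3), chr2:74893069-74893741 at HK2 (53.4) and the PGK1 region with the HNF4 letters (50.1). All of these were of middle rank. Of the 13 HNF4G-KO-only regions, EGLN3 and HIF1A had 2 each. The strongest was chr17:82228802-82229130, at a start of SLC16A3 (49.7), a gene that also had 3 control-only regions at its many starts, and next came chr14:61749386-61749650 at HIF1A and chr2:74856101-74856567 at HK2, both at 43.8.

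**Figure D2:**
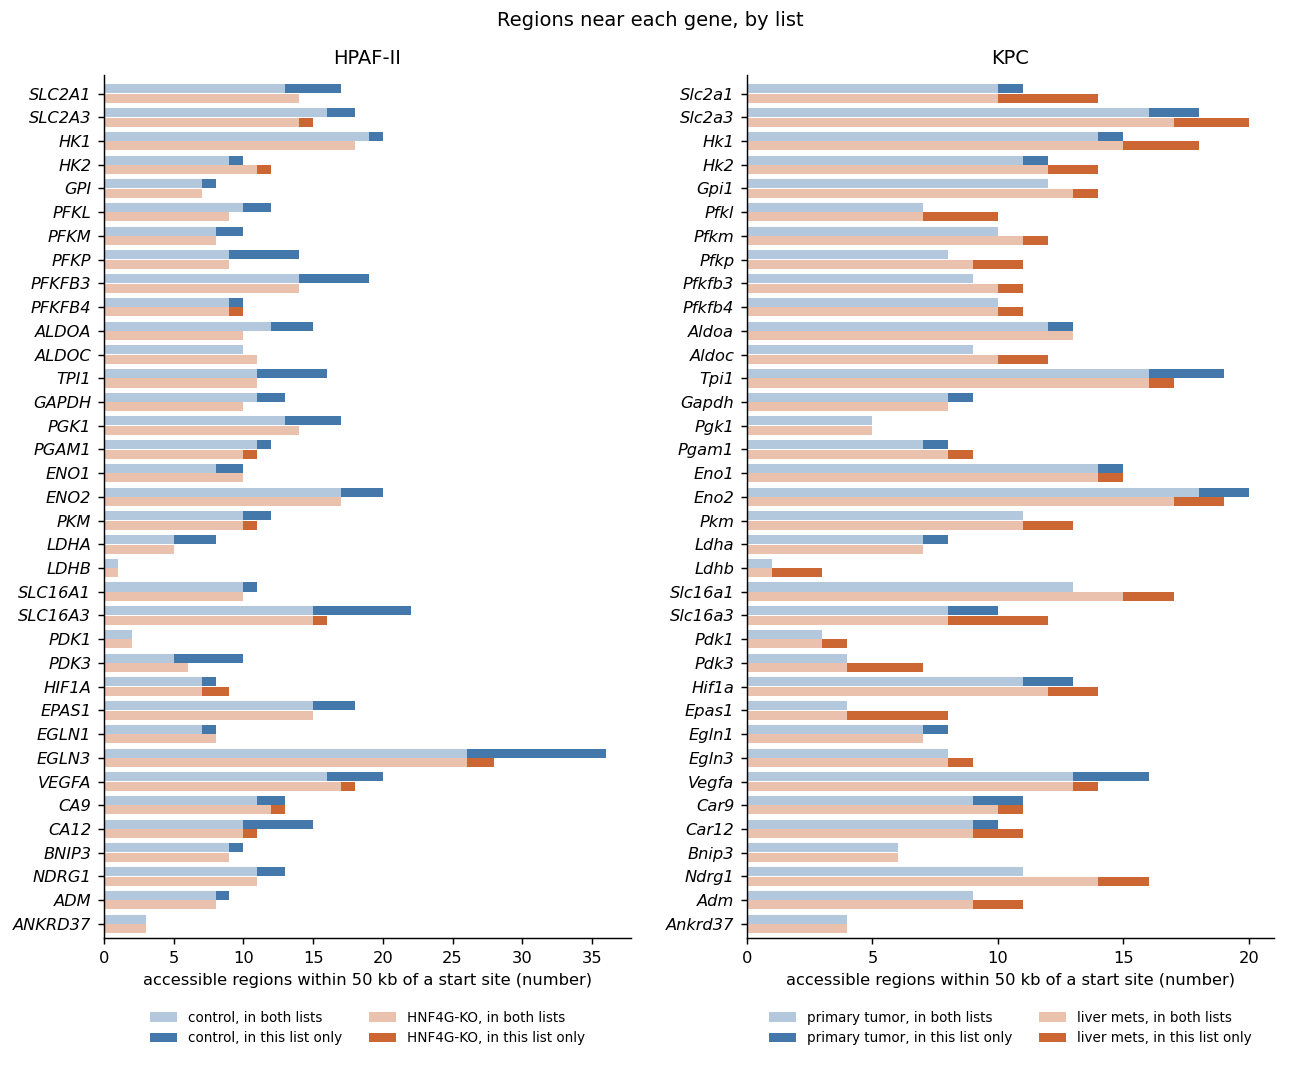
Number of accessible regions within 50 kb of a start site of each gene, with HPAF-II on the left and KPC on the right, 1 bar per list, the pale part for regions in both lists and the dark part for regions in that list only. EGLN3 had the most regions (36 in control), and the dark parts add up to more in the control list for HPAF-II and in the liver mets list for KPC, the longer list of each pair.

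The 370 shared regions moved slightly upward in HNF4G-KO, as did shared regions near other genes. Their median change was 1.38 points (0.42 to 2.40), beside 1.09 near all coding genes. Of the 370, 77 rose, 20.8% (17.0 to 25.2) against a background of 21.3%, and 41 fell, 11.1% (8.27 to 14.7) against 15.0%. By whole-list rank the sign turned: the median was -3.43, with 28 rising and 109 falling, while all shared regions shifted by -4.65. The region with the largest rise, 92.6 points at an ALDOA start, was a 205 bp control region absorbed into a wide HNF4G-KO region that also covered a strong neighbour, and the next rises, at ALDOA (71.8), GAPDH (53.3) and PFKL (51.9), were of the same split or merged kind. Among regions that pair 1 to 1, HIF1A, the oxygen-regulated subunit of HIF, had the largest rise: chr14:61711234-61711799, 12339 bp from the nearest annotated start, went from 15.9 to 52.2. PFKP had a rise of 33.1 at a start, while rises of 35.4 near ALDOA and 32.7 near PFKFB4 were at promoters of other genes.

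The largest falls near these genes in HPAF-II were of similar size. A region 10507 bp from HK2 fell by 31.7 points but was split in HNF4G-KO. Among 1-to-1 pairs, chrX:24427032-24427871, 37373 bp from PDK3, fell by 30.6, and so did a region near ALDOC at the promoter of another gene, and changes of -30.2 near GAPDH and -25.9 near BNIP3 came next. The glycolytic regulators had the highest median over their shared regions, 7.61 points for 23 regions, and the hypoxia targets the lowest, 0.24 for 68 regions, with the enzymes at 0.70 for 157 regions.

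**Figure D3:**
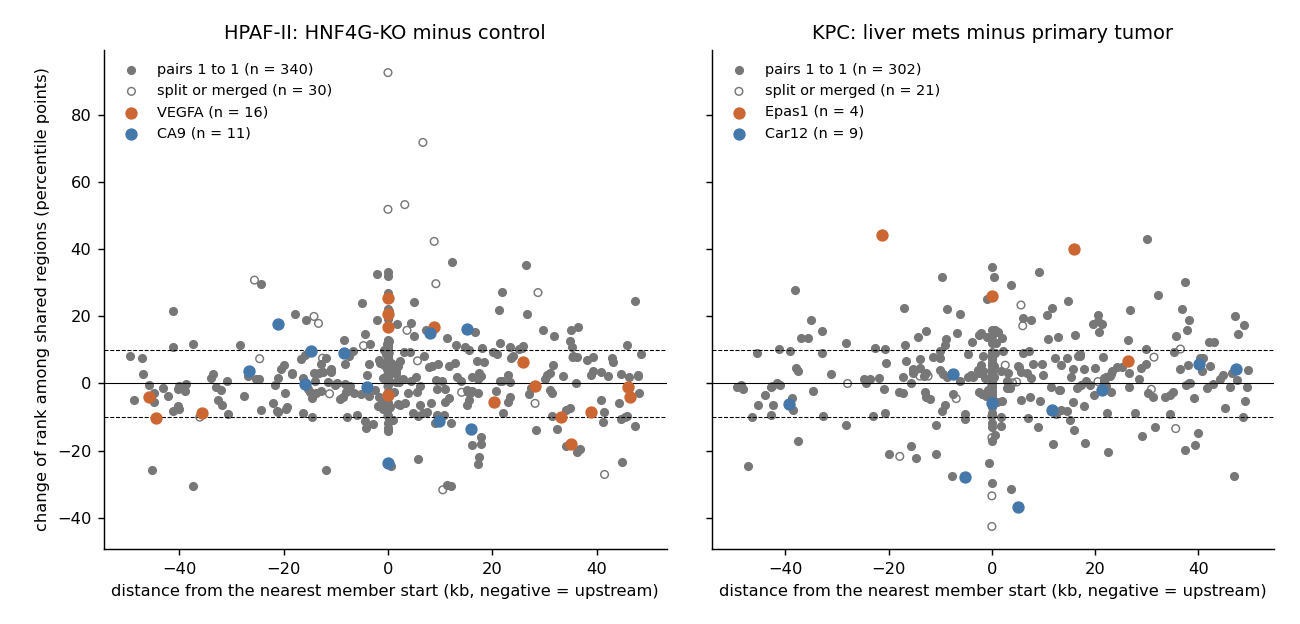
Change in rank of each shared region against its distance from the nearest start of a gene in the set, in kb with upstream negative, for HPAF-II on the left (HNF4G-KO minus control) and KPC on the right (liver mets minus primary tumor). Open circles are split or merged regions, dashed lines mark 10 points, CA9 fell by 23.8 at its start while VEGFA rose by 25.4, and 3 of 4 Epas1 regions rose by more than 26 points in liver mets.

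Regions with the HNF4 letters did not move as a group in HNF4G-KO. CAAAGTCCA, read on both strands and the only HNF4 sequence searched, was in 12 control regions near these genes. Of these, 11 were shared, with changes from -9.93 to 10.7 points and a median of -0.74 (-8.57 to 9.50), and 1 rose and 0 fell by 10 points. The remaining region, near PGK1, was in the control list alone. The letters were found in 3.90% (2.19 to 6.85) of distal control regions near these genes, 11 of 282, beside 1.64% of distal control regions near all coding genes, and in 4.41% (2.41 to 7.92) beside 1.44% in HNF4G-KO. The share near these genes was thus above the series-wide share in both the control and the HNF4G-KO list, over few regions. The 32 shared regions with the FOXA letters had a median change of 0.56, with 6 rising and 1 falling. The 128 with the AP-1 letters had a median of 1.12, with 24 rising and 13 falling. Among all shared regions near coding genes, 21.3% rose and 15.0% fell, so more rises than falls is not particular to these letters.

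In the KPC lines, promoters of these genes were again accessible nearly throughout. A promoter region was present for 35 of 36 genes in primary tumor and 34 of 36 in liver mets, against 57.9% and 59.0% of all coding genes. Slc2a3 was the 1 gene of 36 with a promoter region in the primary tumor list alone, against a background of 1.06%, and 0 of 36 had one in the liver mets list alone, against 2.19%. The Slc2a3 region, chr6:122801384-122801958, was weak, at list percentile 4.42, and liver mets had a region 1089 bp from a start, so that with promoters taken as 2 kb no gene differed. Ldhb, whose enzyme form favours the conversion of lactate to pyruvate, had no promoter region in either list, and its nearest regions lay 16990 bp from the start in primary tumor and 11197 bp in liver mets. The median list percentile of the strongest promoter region was 69.9 in primary tumor and 72.9 in liver mets, under the 74.4 and 76.9 of all coding genes.

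Of 34 promoters compared, 2 rose in liver mets, Epas1 and Pdk1, against a background of 9.87%, and 5 fell, Pfkp, Gpi1, Slc16a1, Egln1 and Slc16a3, against 15.9%. The shares were 5.88% and 14.7%. The 3 largest falls rest on regions that are split in liver mets. With the strongest overlapping region in place of the longest overlap, Pfkp changed by -0.22 instead of -42.6, Gpi1 by 17.1 instead of -33.5 and Slc16a1 by -2.76 instead of -16.2, which left 3 rises and 2 falls. The 28 pairs that match 1 to 1 gave 2 rises and 2 falls. The median change was 2.25 points (-2.60 to 5.39) beside -0.24 for all coding genes, with 19 higher and 15 lower. The liver mets list is the longer of the pair, and by whole-list rank 6 promoters rose and 4 fell, with a median of 4.31.

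**Figure D4:**
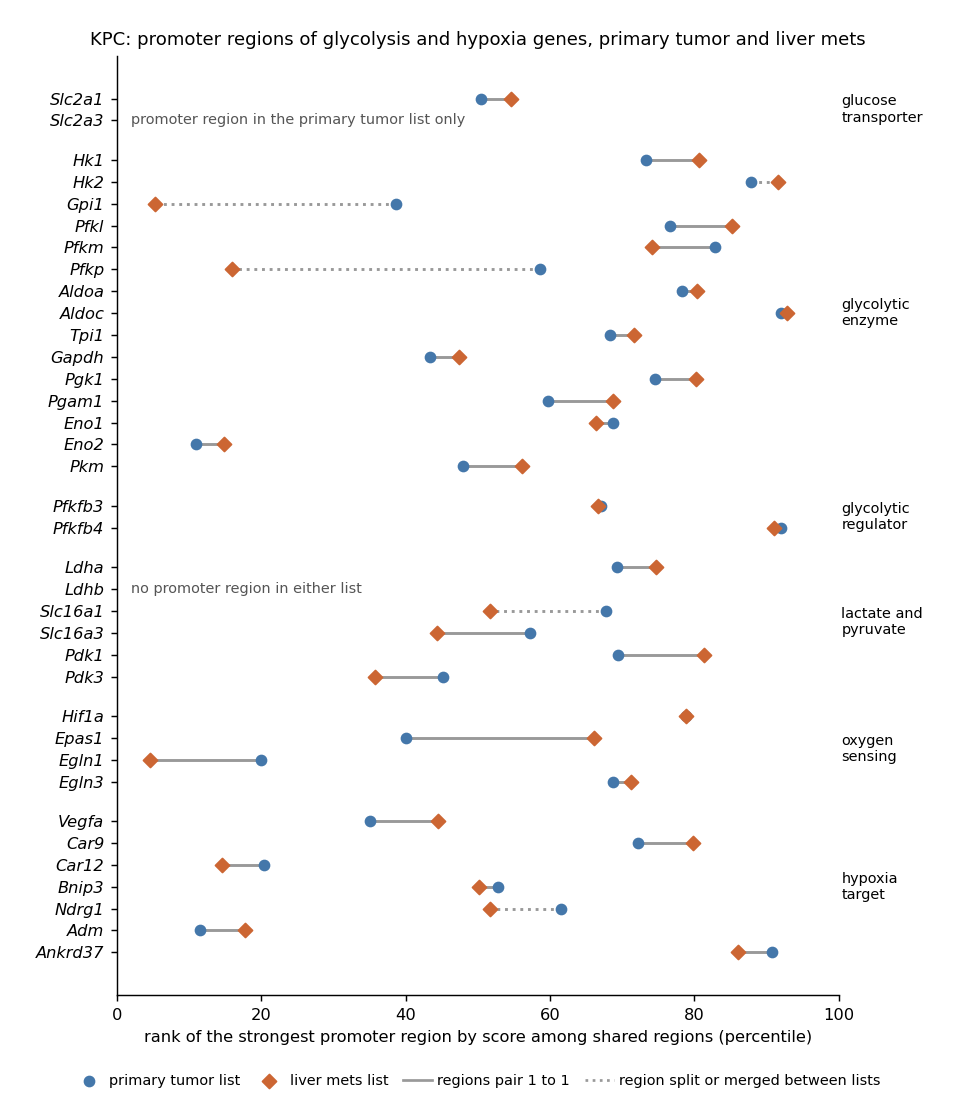
Rank of each gene's strongest promoter region in KPC, as a percentile by score among shared regions, with 1 circle for the primary tumor list and 1 diamond for the liver mets list and the genes grouped by role. Epas1 moved up by 26.1 points, most enzymes shifted slightly to higher ranks, and the widest gaps, at Pfkp and Gpi1, are dotted because their regions are split or merged.

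Enzyme promoters of KPC were mostly a little higher in liver mets, 11 of 15, with a median change of 3.85 points. Pgam1 (9.03), Pfkl (8.47), Pkm (8.23) and Hk1 (7.29) were the farthest up, and Pfkm, the muscle form of phosphofructokinase, changed by -8.80. None of these enzymes passed 10 points in a 1-to-1 pair. The transporter promoter of Slc2a1 was 4.16 higher, and both regulator promoters, Pfkfb3 and Pfkfb4, were close to their primary tumor rank. In lactate and pyruvate handling the members parted: Pdk1, pyruvate dehydrogenase kinase 1, rose from 69.4 to 81.4 and Ldha was 5.39 higher, while Slc16a3, the lactate exporter MCT4, fell from 57.3 to 44.3 and Pdk3 changed by -9.36.

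Oxygen sensing held the clearest pair of opposite movements. Epas1 encodes HIF2 alpha, the second oxygen-regulated subunit of HIF. All 4 of its shared regions ranked higher in liver mets. The promoter, chr17:86753150-86753828, rose from 40.0 to 66.1, the intergenic region 21229 bp upstream, chr17:86732057-86732471, from 27.6 to 71.9, and the intronic region chr17:86769632-86770388 from 24.2 to 64.3. The fourth, chr17:86850713-86851170, was already at 88.0 and reached 94.6. Liver mets had 4 further regions at Epas1 that primary tumor lacked, 4 of 8 in all, each weak, with list percentiles of 3.38 to 22.4. Whole-list ranks gave the same direction at each shared region, from 44.7 to 72.5 at the promoter. In HPAF-II the EPAS1 promoter changed by 2.24 points.

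Egln1, the main prolyl hydroxylase that marks HIF alpha, was lower at its promoter in liver mets. Its strongest promoter region, 664 bp from its start, fell from 20.0 to 4.56, the region covering the start went from 12.4 to 5.51, a change of -6.88, and a weak promoter region was in the primary tumor list alone. Its other regions were mixed: a distal region fell by 21.1 points, and 2 intronic regions rose by 21.8 and 12.8. Hif1a changed by -0.05 and Egln3 by 2.36 at the promoter. For the hypoxia targets, Vegfa (9.38), Car9 (7.58) and Adm (6.18) were higher, while Ndrg1 (-9.83, a split region), Car12 (-5.83), Ankrd37 (-4.82) and Bnip3 (-2.60) were lower, and none passed 10 points.

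Car12, the ortholog of CA12, lost rank away from its start. An intronic region 4980 bp from the start, chr9:66718710-66719082, fell from 59.0 to 22.2, and an upstream region, chr9:66708040-66708409, from 42.1 to 14.3. A further region 24617 bp downstream, chr9:66772327-66772886, was in the primary tumor list alone and was the strongest such region near any of the genes, at list percentile 55.3. The remaining 7 shared regions changed by less than 10 points each. Among other 1-to-1 pairs, a region 30046 bp from Slc2a3, chr6:122702478-122703130, rose from 49.4 to 92.5, while the weak Slc2a3 promoter region was in the primary tumor list only. A region at a start of Gpi1 rose by 34.6, a region 3631 bp from Hk1 fell by 31.4, and a region at a start of Pfkfb3 fell by 29.6.

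Regions held by a single KPC list made up about the same share near these genes as near coding genes at large. In primary tumor, 24 of 347 regions were in that list alone, 6.92% (4.69 to 10.1), beside 8.15%, and in liver mets 56 of 396, 14.1% (11.1 to 17.9), beside 17.7%. Cut to equal length, the lists gave 14.1% (10.8 to 18.2) beside 15.4% and 8.66% (6.09 to 12.2) beside 11.8%, the opposite order. Near the starts the liver mets share was low, 2 of 62 regions or 3.23% (0.889 to 11.0) beside 8.39%. Among distal regions it was 20.2% (15.7 to 25.5) beside 21.4%. The background lay inside each of these intervals.

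Epas1, Slc16a3 and Slc2a1 had the most liver-mets-only regions, 4 each of 8, 12 and 14, followed by Hk1, Pdk3 and Pfkl with 3 each. The strongest by list percentile was the Pfkfb3 region printed with its FOXA and AP-1 letters, chr2:11441145-11441627 (75.3). Regions near Ndrg1 (58.0), Slc16a3 (52.1 and 49.1) and Hk2 (51.9) came next. Tpi1 and Vegfa had the most primary-tumor-only regions, 3 each of 19 and 16, and after the Car12 region the strongest were near Hk2 (42.3), Tpi1 (28.6), Hif1a (25.6) and Aldoa (25.2). Regions of the liver mets list alone thus reached higher ranks than those of primary tumor alone, in the longer list of the pair.

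The 323 shared KPC regions moved upward by a median of 2.19 points (1.15 to 3.45), beside 0.98 near all coding genes. Of these, 69 rose, 21.4% (17.2 to 26.2) against a background of 21.4%, and 39 fell, 12.1% (8.96 to 16.1) against 17.3%, so the difference from the background lay in fewer falls. By whole-list rank 101 rose and 28 fell with a median of 5.24, while all shared regions shifted by 3.67. By role, the hypoxia targets had the lowest median, -1.12 for 61 regions, as in HPAF-II, and the glucose transporters the highest, 4.12 for 26 regions.

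The core of the hypoxia response element was common in promoter regions in general. The interval of the share near these genes lay wholly above the series-wide share in 1 of 4 lists. ACGTG or GCGTG was searched on both strands, and the E-box CACGTG holds it on each strand and so counts as 2 matches. In control, 72 of 88 promoter regions held it, 81.8% (72.5 to 88.5), beside 74.8% of promoter regions of all coding genes. The shares were 75.3% (64.9 to 83.4) beside 75.7% in HNF4G-KO, 82.5% (70.6 to 90.2) beside 78.3% in primary tumor, and 90.3% (80.5 to 95.5) beside 72.9% in liver mets. Liver mets was the list whose interval lay above the series-wide share. Away from starts the intervals lay above it in both KPC lists, at 55.9% (49.2 to 62.4) beside 42.6% in primary tumor and 48.2% (42.1 to 54.4) beside 38.1% in liver mets, and not in HPAF-II, at 46.8% beside 44.0% and 46.3% beside 43.3%. Width and GC content also set how often 5 letters occur, and the median GC content of control promoter regions was 63.9% near these genes and 59.9% over all coding genes, whose part in the shares was not tested.

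In windows of fixed length, 250 bases before to 50 after the start, 40 of 59 RefSeq windows of the 32 genes found in the GRCh38.p14 table held the core, 67.8% (55.1 to 78.3), beside 54.7% of 22199 windows of coding genes, and in mm10 23 of 37 did, 62.2% (46.1 to 75.9), beside 47.6%. HK2, LDHA and BNIP3 had the most matches in a window, 6 each, PGAM1 and EGLN3 had none, and 8 genes had an E-box. SLC2A3, SLC16A1, VEGFA and NDRG1 were not matched. Shared regions with the core had a median change of 1.92 points (0.76 to 2.93) over 228 HPAF-II regions, beside 0.23 (-2.25 to 3.16) over the 142 without it. In KPC the median was 1.92 (-0.01 to 3.00) over 212 regions with the core, beside 3.25 (1.62 to 6.61) over 111 without, and in both pairs the intervals overlapped. The AP-1 letters were in 37.9% of distal control regions near these genes beside 33.3% near all coding genes, and in 41.9% beside 40.0% in liver mets.

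Further genes of the pathway, 44 in number, were examined for their promoters. In HPAF-II, 38 had a promoter region in control and 35 in HNF4G-KO. Of 35 compared, 3 rose against a background of 15.2% of coding gene promoters, and 1 fell against 5.68%. The median change was 2.60 points. FBP1, which reverses the phosphofructokinase step, rose by 19.5, ENO3, muscle enolase, by 19.2 and PLOD1, a collagen hydroxylase, by 12.3, while ARNT2, a partner of HIF alpha subunits, fell by 15.7. A promoter region was in control alone for 4 of the 44, against 2.69% of coding genes, and in HNF4G-KO alone for 1, against 0.634%. These included SLC16A7 (34.8) and STC2 (20.0), both in control alone. PFKFB1 and SLC2A2 also had a promoter region in a single list, but by distance only, since the regions themselves overlap the other list. In KPC, 33 had a promoter region in primary tumor and 32 in liver mets. Of 32 compared, 6 rose against a background of 9.87%, and 4 fell against 15.9%, with a median of -0.14. The rises included P4ha2 (16.4), Hkdc1 (15.6), Bnip3l (13.0), Mif (10.8) and Stc2 (10.5). The falls included Angptl4 (-48.5, a split region), Pdk4 (-35.6), which like Pdk1 inhibits pyruvate dehydrogenase, and Plod2 (-12.3). Eno3 was the 1 gene of 44 with a promoter region in primary tumor alone (18.9), against a background of 1.06%. In liver mets alone 0 had one, against 2.19%.

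Set side by side across the 2 species, 33 of the 36 genes had a promoter region in all 4 lists, and the exceptions were SLC2A3, BNIP3 and LDHB. Over percentile 50 in every list were 21 genes, and over 80 in every list 4. These counts were not made over all orthologs. List by list, 74.9% (control), 72.8% (HNF4G-KO), 57.9% (primary tumor) and 59.0% (liver mets) of all coding genes had a promoter region. The promoter ranks of the same gene in control HPAF-II and in the KPC primary tumor were only loosely related, with a Spearman rho of 0.30 over 33 genes, given as a description since genes are not replicates. GPI was at list percentile 97.4 in control and Gpi1 at 43.5 in primary tumor, CA12 (at a start inside the gene) at 93.7 and Car12 at 25.5, and EGLN1 at 85.2 and Egln1 at 25.1. HK2 was at 73.6 and Hk2 at 88.8, and CA9 at 50.8 and Car9 at 74.5, in the opposite order. The lists differ in species, length and library, and these ranks cannot be told apart from those differences.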

How the data were processed

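ATAC-seq libraries came from 16 samples, 4 per group, assigned to groups from their titles. The authors deposited 4 BED lists, 1 per group, each region with a score as a whole number. The submitters' processing notes name Bowtie2 2.2.6, MACS2 2.1.1.20160309 and DiffBind, with hg38 and mm10. For ATAC-seq, peak settings, read shifting, the pooling of replicates and the scale of the deposited score are not given in the sources used here. The methods for ATAC-seq mention no cells but HPAF-II. The depth per sample is unknown. All region ends lay inside hg38 or mm10 chromosomes. Coordinates are 1-based.

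Regions were assigned with GENCODE 44 (human) or M21 (mouse) by distance to any transcript start, a region near several genes counting once. Overlap of at least 1 bp counted as shared, and split or merged regions were paired by longest overlap. Ranks replaced a count test, because no replicate values were held, and no p-value was given. Scripts ran in Python 3.11.15 (numpy 2.4.6, pandas 2.3.3, scipy 1.17.1, statsmodels 0.14.6) and were tested on simulated lists. Named were genes lacking a promoter region, the 6 genes with most regions in 1 list, the 4 largest rises and falls of promoters and regions, the 5 strongest regions in 1 list, and members by role. Values of some further pathway genes are not reported here. The genes, lists and alternatives were chosen with earlier results of these data known.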

Additional observations from a re-analysis of the deposited data

How the results depend on the processing

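Of 96 recomputed values, 76 stayed close to the main value, 19 moved and 1 reversed. The reversal was the median change of HPAF-II regions near the genes, -3.43 by rank in the whole list, where the KPC median was 5.24, since the lists differ in length. Requiring 50% coverage gave control-only and primary-tumor-only shares of 23.5% and 10.1%, and counting regions within 500 bp as shared gave 15.9% for control. With the upper 50% of each list, promoters in exactly 1 list numbered 2 in HPAF-II and 4 in KPC, the shares were 14.0% in control, 4.60% in primary tumor and 18.8% in liver mets, and 21 genes kept a promoter region in all lists. With equal list sizes, the shares were 10.3% in control, 8.55% in HNF4G-KO, 14.1% in primary tumor and 8.66% in liver mets, and 2 KPC promoters were in 1 list. Within 10 kb, the HPAF-II median was 2.76 and the liver mets share 9.87%. With promoters taken as 2 kb, 0 KPC promoters differed, and the window around the start gave 67.8% for the hypoxia core. Apart from the whole-list ranks, whose construction shifts all regions, the causes were not tested. The strongest overlapping partner, the omission of EGLN3, the backgrounds at equal length and the settings for all 4 lists were added after seeing the data. No paired analysis was possible because each group has 1 list with no replicate values, and for the same reason leaving out replicates could not be run.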
